A study of Mus musculus with 46 samples.

Results

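Livers of old and young male mice that had not been operated on were compared on 6 of the 46 arrays of a study of liver regeneration. The members are the 3 arrays labelled as old controls at 0 h and the 3 labelled as young controls at 0 h, chosen by their titles and treatment label. All 12422 probe sets (groups of short probes for 1 transcript) that are not control features were compared. The mice were males of the hybrid strain CB6F1. Young mice were 5 to 6 months old and came from the Jackson Laboratories, and old mice were 25 to 27 months old and came from the National Institute on Aging. Age and supplier therefore cannot be told apart in any comparison here. The 6 livers received no operation. The other 40 arrays are from livers of the same ages and strain at 0.5, 1, 2 or 4 h after partial hepatectomy (PH, 24 arrays), which took out 70% of the organ, or after a sham operation (16 arrays). Surgery was done under injected avertin and inhaled isoflurane. The labels do not say whether the 0 h animals were anaesthetised, or that each array came from a separate animal, so a p-value here weighs only array-to-array spread, which may be partly technical.

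The liver is made mostly of hepatocytes, which divide rarely in the adult, secrete most plasma proteins and run lipid, drug and amino acid metabolism. Kupffer cells (resident macrophages), lymphocytes, endothelial, stellate and bile duct cells make up the rest. Ageing in mammalian tissues is known for higher expression of inflammatory and interferon-induced genes and for accumulation of B and plasma cells. In male rodents, pulses of growth hormone maintain a set of male-biased liver genes, and many liver genes follow feeding, glucocorticoid hormone and the time of day. The labels used here give neither the feeding state nor the hour of collection.

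Few probe sets differed between the ages after adjustment. With limma, 18 of 12422 probe sets (0.145%) differed between old and young at a Benjamini-Hochberg adjusted p under 0.05. Of these, 16 (0.129%) were higher in old liver and 2 (0.0161%) were lower. In the named part of this set, Noct, Cxcl1, Ifi27, Srebf1 and Tcf4 were higher in old liver, and Zbtb16 and Slc39a4 were lower. These 7 genes account for 9 of the 18 probe sets. Another 7 probe sets carry several gene symbols each, and 2 carry no name. With each gene taken from its brightest probe set (by the mean of the 46 arrays), 5 of 8251 genes (0.0606%) rose and 1 (0.0121%) fell. Those calls keep the adjustment over 12422 probe sets. When the 8251 were fitted and adjusted by themselves, 2 were higher and 0 lower. At an unadjusted p under 0.05, 214 probe sets were higher and 785 lower, 8.04% of all. The median difference over all probe sets was -0.06 on the log2 scale, and all 3 old arrays lay below all 3 young ones in 1649 probe sets (13.3%) but above them in 392 (3.16%). Counts of list members that lie below, and counts of differences above 0, are read against that uneven background.

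The number of calls depended on the arrays and on the model. Leaving out 1 array at a time gave 6 to 16 calls (16 without young 1, 7 without young 2, 9 without young 3, 6 without old 1, 8 without old 2 and 16 without old 3), and array weights gave 623, of which 116 were higher and 507 lower. Replicate 3 of the young group stood apart in several control features. Its probe sets for the 3′ and 5′ ends of the actin mRNA were at 10.76 and 9.55, against 12.54 to 12.67 and 11.57 to 11.78 on the other 5 arrays. Its probe set for the 5′ end of the Gapdh mRNA was at 11.44 against 11.74 to 12.08, and the 3′ minus 5′ difference for Gapdh, a sign of RNA quality, was 0.71 against 0.19 to 0.43. The part of these differences in the values of young 3 below was not tested. Young 3 and old 1 lay farthest apart on the first principal component of the 6 arrays (38.7% of their variance). The mean of the bacterial spike-in controls ranged from 8.79 to 10.4 in the young and from 9.70 to 10.6 in the old arrays (exact permutation test, two-sided, p = 0.4, where 0.1 is the smallest value that 3 against 3 arrays allow). Pairs of arrays within an age correlated at 0.991 to 0.996 and pairs between the ages at 0.987 to 0.995, so the ranges overlapped. Alb and Apoa1, which encode the main plasma protein and the main protein of high-density lipoprotein, marked the tissue as liver: Alb was at 13.72 to 14.04 and Apoa1 at 13.63 to 14.00 on the 6 arrays. The 11 measured pancreatic acinar markers had 0 members called and a median difference of 0.00.

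**Figure D1:**
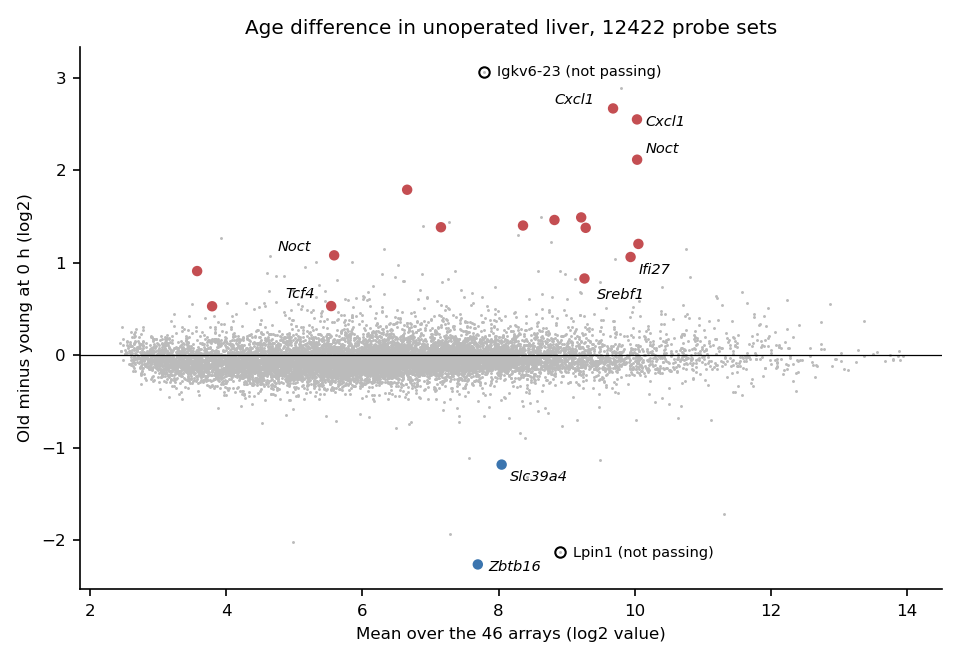
Difference between the mean of the 3 old and the 3 young unoperated livers (vertical axis, log2) against the mean over the 46 arrays (horizontal axis, log2 value) for 12422 probe sets. Red and blue points are the 16 probe sets that were higher and the 2 that were lower at an adjusted p under 0.05, unlabelled ones carry several symbols or none, and the open circles mark Igkv6-23 and Lpin1, which did not pass.

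Noct had the smallest p of all named genes. It encodes nocturnin, a phosphatase whose mRNA cycles daily in liver and which has been linked to lipid metabolism. Its log2 values were 8.28, 8.11 and 8.51 in the young arrays and 10.64, 10.39 and 10.20 in the old arrays. All 3 old values lay more than 1 log2 unit above all 3 young values. The difference was 2.11 ± 0.20 (standard error, n = 3 per age), a 4.33-fold rise (limma, adjusted p = 8.85e-08), and it passed under all 17 alternative settings, with differences of 2.00 to 2.22. A second probe set for Noct, whose probes are shared within a family of sequences (suffix _f_ on the array), rose by 1.08 ± 0.20 (adjusted p = 0.00951). The remaining one, also of that suffix, differed by 0.97 ± 0.22 and did not pass (adjusted p = 0.0578).

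Noct is also 1 of several symbols on 5 further probe sets that rose, each of which also carries Sgip1, and some Cog6 or Gm10845. Their differences were 1.20 to 1.49. Their probes are shared within a sequence family, so which transcript they measured cannot be told apart. In all 5, young 1 was the highest of the young arrays, as it was on the Noct probe set that did not pass (6.32, 6.08 and 5.44 in young liver), whereas on both Noct probe sets that passed it was young 3. The unnamed probe set 98369_f_at was like the 5 in this respect, with 8.86, 8.15 and 8.32 in the young and 10.02, 9.85 and 9.59 in the old arrays. It rose by 1.38 ± 0.16 (limma, adjusted p = 5.34e-06).

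No other measured gene of the daily clock was called. Of 23 measured clock and output genes, 1 was called, Noct itself, and the median difference was -0.02 against -0.05 over all genes. Dbp, an output factor with a steep daily rhythm, was at 4.77, 4.95 and 6.28 in young and 6.39, 4.86 and 4.90 in old liver, so 1 array of each age was high and the ages overlapped. Its difference was 0.05 ± 0.46 (limma, adjusted p = 0.984). Per1, a repressor of the clock, differed by -0.14 ± 0.15 (adjusted p = 0.805) and Nr1d1, which encodes the receptor REV-ERB alpha, by -0.22 ± 0.28 (adjusted p = 0.835), and these small values changed sign when some single arrays were left out. Alas1, the first enzyme of haem synthesis, belongs to the same list and is described with the genes that were lower.

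**Figure D2:**
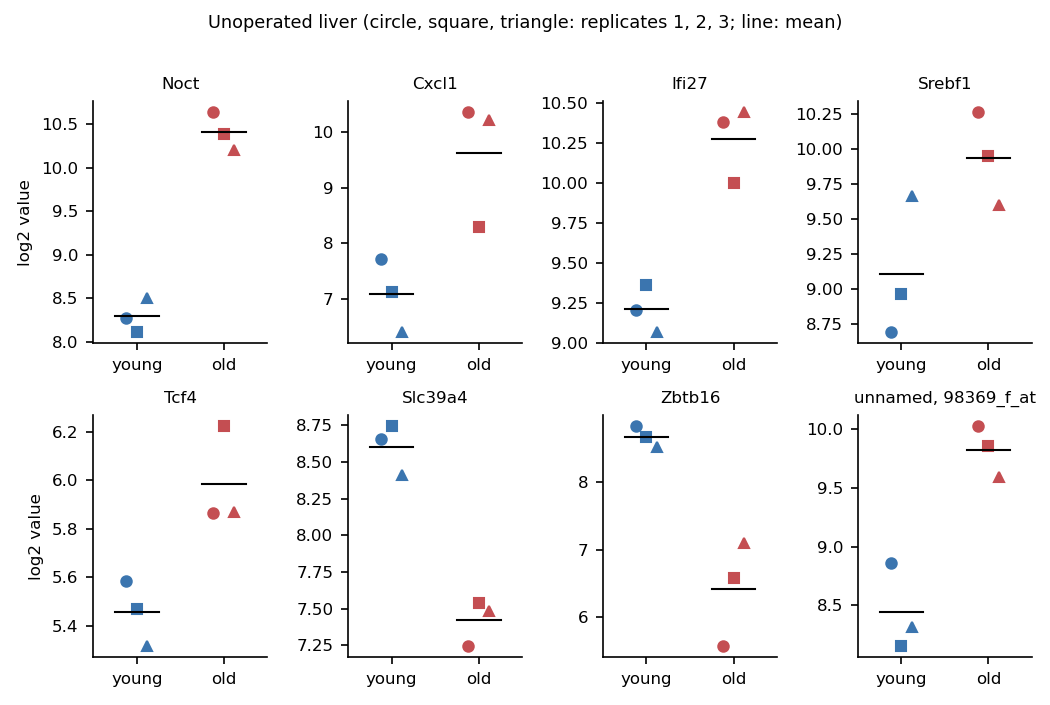
Log2 values of the 7 named genes that passed and of 1 unnamed probe set (vertical axes, which differ between panels and do not start at 0) in the 3 young (blue) and 3 old (red) unoperated livers. Circles, squares and triangles are replicates 1, 2 and 3, lines are group means, and the ages overlap only for Srebf1.

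Cxcl1 showed the largest rise among the named genes that passed, and the widest spread. It encodes a chemokine that attracts neutrophils and is induced through NF-kB. It was at 7.71, 7.13 and 6.39 in young and 10.37, 8.29 and 10.22 in old liver. Old 2 stood only 0.58 above the highest young array, and old 1 and old 3 stood far above it. The difference was 2.55 ± 0.55, or 5.85-fold (limma, adjusted p = 0.0397), and a second probe set gave 2.67 ± 0.56 (adjusted p = 0.0339). The call for Cxcl1 held in 6 of 17 alternatives. It was lost without young 2, young 3, old 1 or old 3, with an adjusted p of up to 0.374 when 1 array was left out and differences of 2.18 to 3.22.

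The 250 bases before the start site of Cxcl1 and of Noct are shown because they are the promoters available for the passing genes with the largest differences, and because they differ in the motif found. They are RefSeq sequences of the mouse build GRCm38.p6, on the plus strand, at chr5:90890995-90891244 for Cxcl1 and chr3:51224197-51224446 for Noct, and the array values were not made with this build. Capitals mark a match to the NF-kB element, which lies from 71 to 62 bases before the start site of Cxcl1.
Cxcl1: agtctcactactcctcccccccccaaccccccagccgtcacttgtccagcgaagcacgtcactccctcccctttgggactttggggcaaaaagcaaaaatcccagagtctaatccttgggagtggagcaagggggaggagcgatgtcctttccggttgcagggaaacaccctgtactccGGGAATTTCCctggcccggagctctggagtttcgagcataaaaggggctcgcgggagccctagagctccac
Noct: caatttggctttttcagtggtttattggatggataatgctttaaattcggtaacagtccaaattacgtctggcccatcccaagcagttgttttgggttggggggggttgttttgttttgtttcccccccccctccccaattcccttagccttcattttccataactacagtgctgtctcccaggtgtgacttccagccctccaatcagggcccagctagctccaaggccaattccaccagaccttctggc
The NF-kB element was found on either strand in 0.356% of 32851 mouse promoter windows of this length. Both windows were also searched on both strands for the interferon-stimulated element (in 2.98% of windows), the PPAR element (0.0335%), TTCNNNGAA (STAT element, 7.02%), CACGTG (E-box, 6.02%), TTATGTAA (D-box, 0.819%), TGACTCAGC (antioxidant or AP-1 element, 0.39%) and TGACGTCA (cAMP response element, 1.55%). The Cxcl1 window held 1 match in all and the Noct window 0. The NF-kB and cAMP motifs were added after the values had been seen, and a match is a description of letters only.

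Other genes of the NF-kB group were not called beside Cxcl1. Of 41 measured NF-kB, cytokine and chemokine genes, 1 rose and 0 fell. The median was -0.04, 5 members (12.2%) lay wholly above the young arrays, and over all genes 3.18% did. Of the 16 neutrophil markers measured, 0 were called, and their summed linear level was 1222 to 1369 in young and 1222 to 1412 in old arrays. Lcn2, a siderophore-binding protein of neutrophils and of stressed hepatocytes, was at 4.57, 4.94 and 4.92 in young and 6.60, 6.11 and 5.60 in old liver. Its groups did not overlap, but its difference of 1.30 ± 1.16 did not pass (limma, adjusted p = 0.772), where the standard error pools the spread within all 18 groups.

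Ifi27 rose by 1.06 ± 0.19, or 2.09-fold (limma, adjusted p = 0.00889). It encodes a small mitochondrial protein induced by type I interferon. Its values were 9.21, 9.36 and 9.07 in young and 10.38, 9.997 and 10.44 in old liver. Every old array was above every young one, and the spread within each age was small. The call was lost without young 3, old 1 or old 3, with an adjusted p of at most 0.0785 when 1 array was left out and differences of 0.98 to 1.20.

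Ifi27 was the 1 called member of 38 measured interferon-induced genes. In 9 of the 38 (23.7%) all old arrays lay above all young ones, against 3.18% of all genes, and in 2 (5.26%) they lay below, against 12.4%. The median was 0.06, and 26 of 38 differences were positive. Nmi, a partner of STAT and Myc proteins that interferon induces, was at 4.81, 5.15 and 4.81 in young and 5.58, 5.46 and 5.39 in old liver. Its difference of 0.56 ± 0.13 did not pass (limma, adjusted p = 0.104). Among 21 measured MHC class I and antigen processing genes, which display peptides to T cells, 0 were called and the median was 0.09. The smallest p values there belonged to H2-Q4, a class I heavy chain (0.42 ± 0.16, adjusted p = 0.509), B2m, the shared light chain (0.23 ± 0.12, adjusted p = 0.625), and Psme1, a proteasome activator subunit (0.21 ± 0.12, adjusted p = 0.656).

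Srebf1 rose by 0.83 ± 0.18, or 1.78-fold (limma, adjusted p = 0.0397), although the ages overlapped. It encodes SREBP-1, the transcription factor that drives fatty acid synthesis after feeding. It was at 8.69, 8.96 and 9.67 in young and 10.26, 9.95 and 9.60 in old liver. Young 3 was above old 3. The call held in 8 of 17 alternatives. When 1 array was left out it held without young 3 or old 3 and was lost without young 1, young 2, old 1 or old 2, where the adjusted p reached 0.485.

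Other enzymes of fat synthesis gave a mixed picture. Of 33 measured fatty acid and triglyceride synthesis genes, 1 rose, Srebf1, and 0 fell, with a median of -0.02. Fasn, the fatty acid synthase and a target of SREBP-1, was at 8.31, 8.61 and 8.66 in young and 9.76, 9.03 and 9.24 in old liver. All old values lay above all young ones, but the difference of 0.82 ± 0.20 did not pass (limma, adjusted p = 0.118). Lpin1, a phosphatidate phosphatase of triglyceride synthesis that fasting and glucocorticoids induce, lay the other way, at 8.55, 8.84 and 10.54 in young and 8.33, 6.41 and 6.81 in old liver. Its groups did not overlap, young 3 was far above the other arrays, and the difference of -2.13 ± 0.49 did not pass (adjusted p = 0.0754).

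Cholesterol synthesis genes had the highest median of the 36 lists, 0.39, with 14 of 18 measured differences above 0. None of the 18 was called and in 0 did the ages separate fully. At an unadjusted p under 0.05, 3 were higher and 0 lower. Sc5d, a late desaturase of the pathway, differed by 0.74 ± 0.27 (limma, adjusted p = 0.500), Fdft1, the squalene synthase, by 0.47 ± 0.21 (adjusted p = 0.574) and Lss, the lanosterol synthase, by 0.34 ± 0.15 (adjusted p = 0.596). For all 3, young 3 was the lowest array, and the mean level of the list was 7.36 to 8.18 in the young and 7.93 to 8.30 in the old arrays.

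Zbtb16 showed the largest fall among the genes that passed, -2.26 ± 0.47, or 4.8-fold lower (limma, adjusted p = 0.0339). It encodes PLZF, a zinc finger repressor that glucocorticoids induce in many cells. It was at 8.83, 8.67 and 8.53 in young and 5.57, 6.57 and 7.10 in old liver. The young arrays were close together and the old arrays spread over more than 1 log2 unit below them. A second probe set for Zbtb16 differed by -0.33 ± 0.11 and did not pass (adjusted p = 0.438). The call held in 6 of 16 alternatives, and when 1 array was left out it held only without old 3. The adjusted p reached 0.310 in the other 5 cases, and the 6 differences ranged from -2.61 to -1.84.

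Slc39a4, which encodes the zinc importer ZIP4, fell on 1 of its 2 probe sets. That probe set was at 8.66, 8.74 and 8.41 in young and 7.24, 7.54 and 7.48 in old liver. The ages were well apart, and the difference was -1.18 ± 0.23, 2.27-fold lower (limma, adjusted p = 0.0158). The other probe set, the one with the higher mean, was at 9.03 to 9.27 in young and 9.06 to 9.15 in old liver and differed by -0.07 ± 0.08 (adjusted p = 0.817). The 2 probe sets for Slc39a4 disagree, so the change is that of 1 probe set. When 1 array was left out, its call held without young 3 or old 3 and was lost in the other 4 cases, where the adjusted p was at most 0.135.

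Socs2, Alas1 and Fkbp5, taken from 3 different lists, had large differences below 0 that did not pass. Socs2, a feedback inhibitor of growth hormone signalling, was at 8.55, 8.98 and 7.30 in young and 5.94, 6.51 and 6.59 in old liver, a difference of -1.93 ± 0.48 (limma, adjusted p = 0.118). Alas1, the rate-limiting enzyme of haem synthesis in liver, was at 10.81, 10.97 and 11.92 in young and 10.27, 8.89 and 9.37 in old liver, a difference of -1.72 ± 0.45 (adjusted p = 0.196). Fkbp5, a chaperone partner that glucocorticoids induce, was at 7.65, 8.29 and 9.44 in young and 7.29, 6.76 and 7.38 in old liver, a difference of -1.31 ± 0.41 (adjusted p = 0.382). In these 3 every old array lay below every young one. Young 3 was the highest array for Alas1, Fkbp5 and Lpin1 but the lowest of the young arrays for Socs2 and for Dusp1, a glucocorticoid-induced phosphatase that was at 9.78, 10.29 and 8.75 in young and 8.52, 8.78 and 8.11 in old liver (-1.13 ± 0.42, adjusted p = 0.498).

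Tcf4, a basic helix-loop-helix transcription factor, rose by 0.53 ± 0.11, or 1.44-fold (limma, adjusted p = 0.0339). It was at 5.58, 5.47 and 5.31 in young and 5.87, 6.22 and 5.87 in old liver. The ages did not overlap, and the gap between the nearest arrays was 0.28. The call held in 7 of 17 alternatives and, with 1 array left out, only without young 1 or old 3.

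Of the other probe sets that rose, 102348_at has no name and was at 6.29, 6.02 and 5.24 in young and 6.98, 8.20 and 7.73 in old liver. It rose by 1.79 ± 0.26 (limma, adjusted p = 2.09e-04). The probe set 101845_s_at carries 7 symbols, among them Csprs and Gm7592, and was at 3.45, 3.09 and 3.44 in young and 4.25, 4.24 and 4.22 in old liver. Its rise of 0.91 ± 0.12 passed in all 14 alternatives in which it was tested (adjusted p = 1.84e-05). The probe set 93458_at, which carries Cphx1, Cphx2 and Cphx3, rose by 0.53 ± 0.12 (adjusted p = 0.0397). It was at 3.71, 3.83 and 3.53 in young and 4.15, 4.23 and 4.28 in old liver, near the dim end of the arrays, as was 101845_s_at. The call for 93458_at held in 5 of 15 alternatives, and in 0 of those with 1 array left out. The probe set names and symbols given here were chosen after their values had been seen.

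The other genes given because their p values were among the smallest had small differences. Higher in old liver but not passing were Srsf5, a splicing factor (0.61 ± 0.16, limma, adjusted p = 0.188), and Plscr2, of the phospholipid scramblase family (0.57 ± 0.15, adjusted p = 0.225). Lower but not passing were Snap25, a protein of vesicle fusion (-0.35 ± 0.08, adjusted p = 0.0937), C86187 (-0.44 ± 0.11, adjusted p = 0.118), Gm9574 (-0.39 ± 0.10, adjusted p = 0.137), Uevld (-0.34 ± 0.09, adjusted p = 0.234) and Rab3b, a small GTPase of secretion (-0.35 ± 0.10, adjusted p = 0.242). Snap25 and Uevld lay near the dim end of the arrays, at 3.13 to 3.57 and 2.83 to 3.50.

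Plasma proteins of the acute phase, which hepatocytes release during inflammation, lay mostly above the young level without passing. Of 29 measured acute phase genes 0 were called, the median was 0.24 and 21 differences were above 0. In 10 of the 29 (34.5%) all old arrays lay above all young ones, against 3.18% of all genes. Itih4, a heavy chain of the inter-alpha-trypsin inhibitor family, was at 10.56, 10.66 and 10.57 in young and 11.40, 11.21 and 11.03 in old liver, a difference of 0.61 ± 0.25 (limma, adjusted p = 0.544). Hpx, the haem carrier hemopexin, was at 12.28, 12.50 and 12.06 in young and 12.89, 12.97 and 12.65 in old liver, a difference of 0.55 ± 0.24 (adjusted p = 0.568). Apcs, serum amyloid P, was at 9.79, 10.13 and 9.69 in young and 11.07, 10.65 and 10.41 in old liver, a difference of 0.84 ± 0.39 (adjusted p = 0.602). All 3 were separated between the ages, and old 3 was the lowest old array in each.

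The acute phase genes with the steepest induction were uneven among the old livers. Saa2, serum amyloid A, was at 7.63, 7.74 and 8.04 in young and 7.89, 10.60 and 8.37 in old liver. Only old 2 was far above the young range, whereas Lcn2 was highest in old 1. The difference for Saa2 was 1.15 ± 1.07 (limma, adjusted p = 0.779). Among 38 measured complement and coagulation genes 0 were called, 30 differences were above 0 and the median was 0.10. Cfi, the complement factor I, differed by 0.37 ± 0.13 (adjusted p = 0.498), Hc, complement component C5, by 0.44 ± 0.19 (adjusted p = 0.571) and F13b, a subunit of coagulation factor XIII, by 0.30 ± 0.11 (adjusted p = 0.508).

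**Figure D3:**
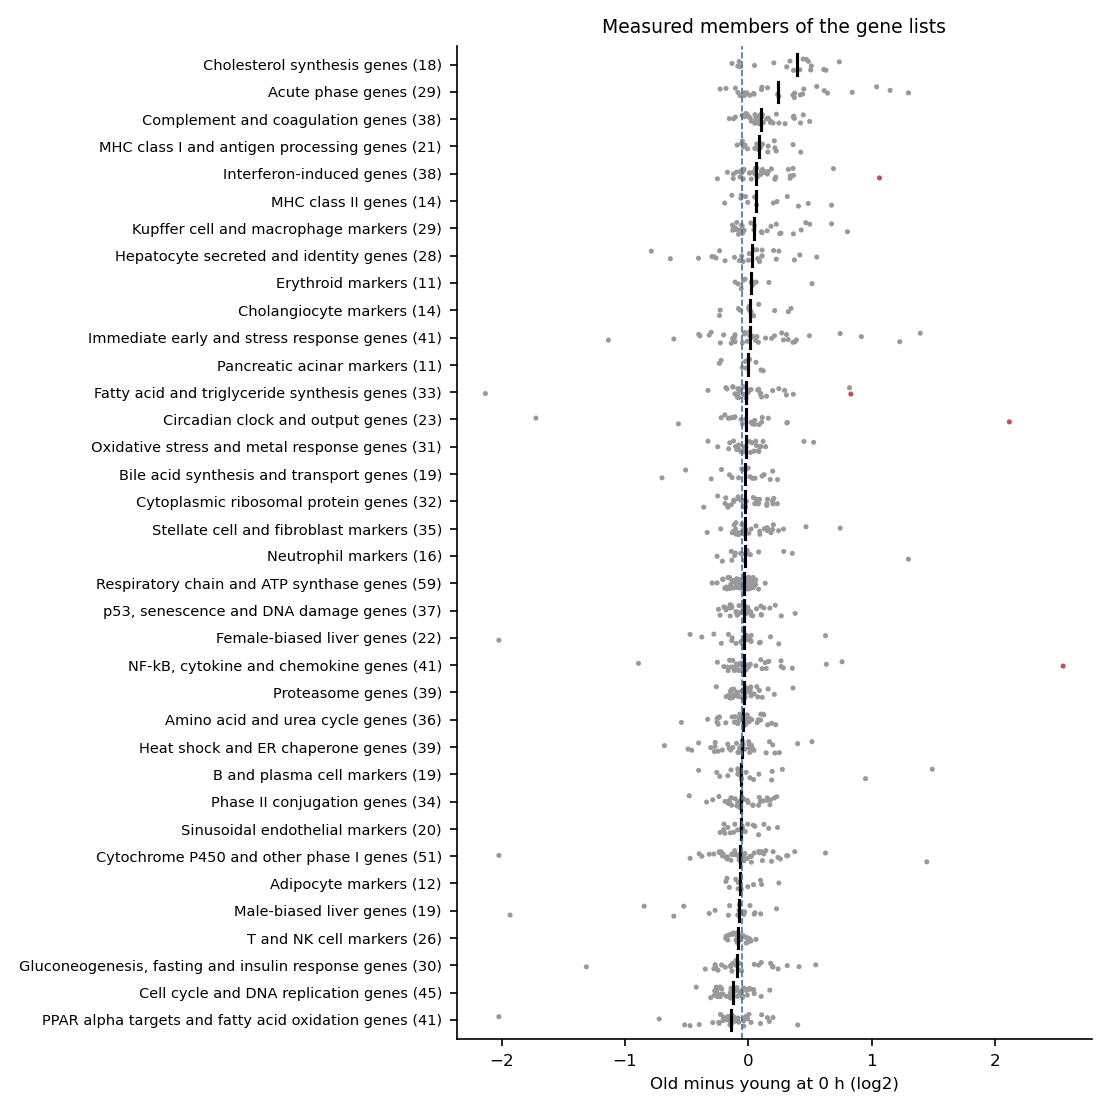
Differences between old and young unoperated liver (horizontal axis, log2) for the measured members of 36 gene lists, with the number measured in brackets. Each point is 1 gene, red points passed at an adjusted p under 0.05, black bars are list medians, the dashed line is the median of all genes (-0.05), and cholesterol synthesis (0.39) and acute phase (0.24) have the highest medians.

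Immunoglobulin transcripts, the product of B and plasma cells, had the largest single difference of any gene but did not pass. In whole tissue, a change in the number of cells of a type and a change in RNA per cell cannot be told apart. Igkv6-23, a kappa light chain variable segment, was at 6.31, 6.22 and 6.14 in young and 10.80, 8.46 and 8.61 in old liver. All 3 old arrays were more than 1 log2 unit above the young ones, with old 1 highest, and the difference was 3.07 ± 0.77 (limma, adjusted p = 0.13). A probe set that carries 5 symbols, Igkv6-23 and the constant segment Igkc among them, gave 2.89 ± 0.68 with a smaller p and did not pass either (adjusted p = 0.0937). Ighm, the mu heavy chain, was at 7.77, 8.13 and 7.81 in young and 10.47, 8.70 and 9.004 in old liver, and Jchain, which joins secreted antibody units, was at 4.70, 4.37 and 4.75 in young and 6.24, 5.27 and 5.15 in old liver. Old 1 was again the highest array for both, and their differences were 1.49 ± 0.62 (adjusted p = 0.555) and 0.95 ± 0.58 (adjusted p = 0.667).

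Over all 80 probe sets annotated to immunoglobulin genes, 53 differences were above 0, 0 passed and the median was 0.13. In 15 of them (18.8%) all old arrays lay above all young ones, against 3.16% of all probe sets, and in 5 (6.25%) they lay below, against 13.3%. These probe sets share sequence within families, so single segments are uncertain. The 19 measured B and plasma cell markers had a median of -0.06 (0.03 over all 47 probe sets of the list), 8 differences above 0 and 0 calls. Their summed linear level was 2109 to 2445 in young and 2316 to 3402 in old arrays. Beside Ighm, the smallest p values in that list belonged to Fcrla and Iglc1, which were lower in old liver. Fcrla differed by -0.26 ± 0.12 (limma, adjusted p = 0.607), and its ages overlapped. Iglc1 differed by -0.23 ± 0.12 (adjusted p = 0.626), with all old arrays below all young ones. The Ighm values above are from the brightest of its 16 probe sets, whose differences were not all above 0. Of 26 measured T and NK cell markers, 0 were called and 3 differences were above 0, with a median of -0.08 against -0.05 over all genes. Among them 0 lay wholly above and 1 (3.85%) below, against 3.18% and 12.4% of all genes.

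Several macrophage genes lay above the young level, most clearly in old 1 and old 2, without passing. Of 29 measured Kupffer cell and macrophage markers, 0 were called. Among them 5 (17.2%) lay wholly above the young arrays and 0 below, against 3.18% and 12.4% of all genes. Of their differences 16 were above 0, with a median of 0.04 (-0.04 over all 39 probe sets of the list). Their summed linear level was 3437 to 3819 in young and 3396 to 4780 in old arrays, so the ranges overlapped. Lyz2, lysozyme of myeloid cells, was at 6.20, 6.09 and 5.69 in young and 7.26, 6.89 and 6.23 in old liver, a difference of 0.80 ± 0.41 (limma, adjusted p = 0.625). Ctss, a lysosomal protease, was at 7.26, 7.36 and 7.01 in young and 8.27, 7.99 and 7.39 in old liver (0.67 ± 0.34, adjusted p = 0.622), and Mpeg1, a pore protein of macrophages, differed by 0.46 ± 0.25 (adjusted p = 0.638). In all 3, old 3 lay just above the highest young array.

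Class II antigen presentation genes, which serve macrophages, dendritic cells and B cells, also had 0 calls. Of 14 measured MHC class II genes, 3 (21.4%) lay wholly above the young arrays and 0 below, against 3.18% and 12.4% of all genes, with a median of 0.06. Cd74, the class II invariant chain, was at 8.56, 8.48 and 8.47 in young and 9.15, 9.13 and 8.44 in old liver, a difference of 0.40 ± 0.34 (limma, adjusted p = 0.760). H2-Aa, a class II chain, was at 7.23, 7.34 and 7.65 in young and 7.98, 8.04 and 7.64 in old liver (0.48 ± 0.25, adjusted p = 0.622). Old 1 and old 2 were above the young range for both genes, and old 3 was within it for H2-Aa and just below it for Cd74.

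**Figure D4:**
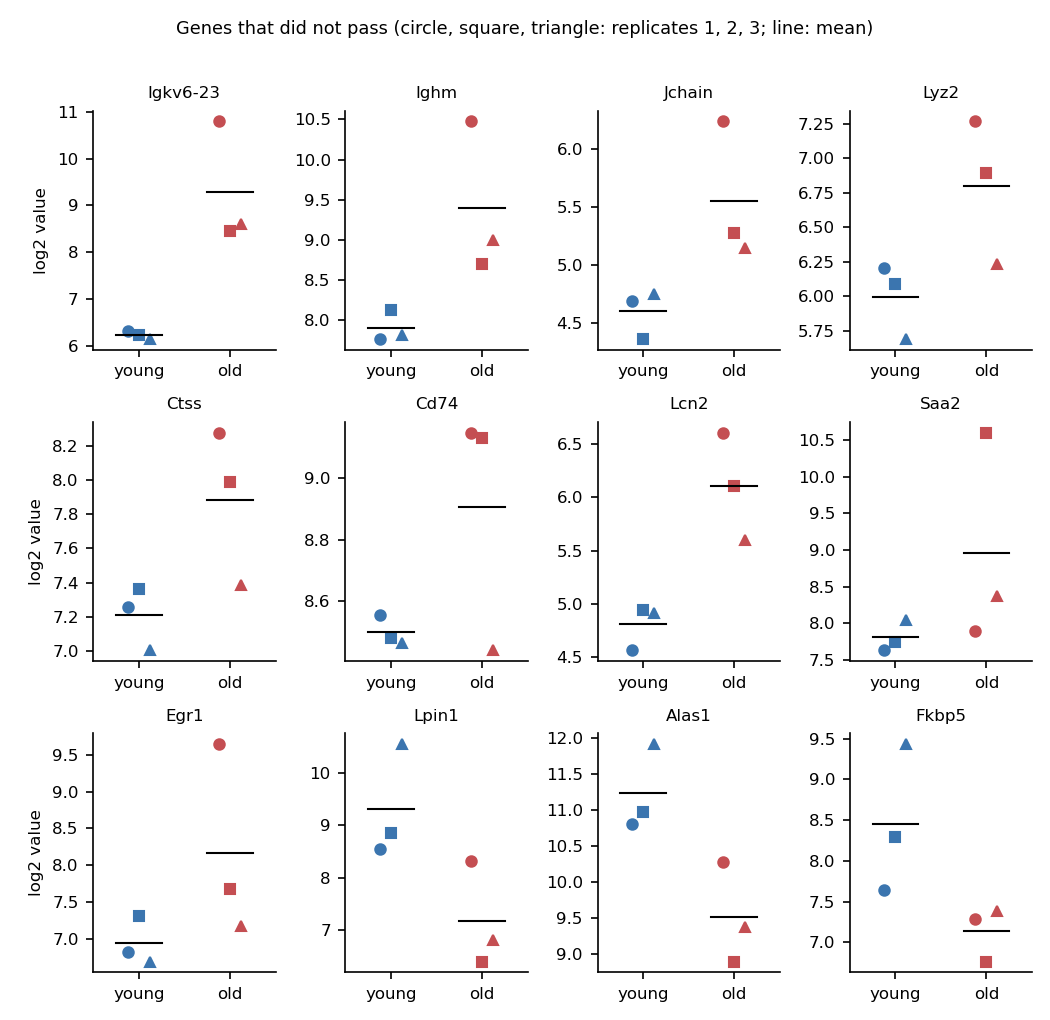
Log2 values (vertical axes, which differ between panels and do not start at 0) of 12 genes that did not pass, in the 3 young (blue) and 3 old (red) unoperated livers, with replicates 1, 2 and 3 as circles, squares and triangles and group means as lines. Old 1 is the highest array for Igkv6-23, Ighm, Jchain, Lyz2, Ctss and Egr1, and young 3 is the highest for Lpin1, Alas1 and Fkbp5.

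Some immediate early genes, which respond within minutes to growth factors or stress, were highest in old 1. Of 41 measured, 0 were called and the median was 0.01. At an unadjusted p under 0.05, 3 were higher and 2 lower. The smallest p belonged to Dusp1, given above, which was lower in old liver (-1.13 ± 0.42, limma, adjusted p = 0.498). Egr1, a zinc finger factor, was at 6.82, 7.31 and 6.70 in young and 9.65, 7.68 and 7.18 in old liver (1.23 ± 0.57, limma, adjusted p = 0.602), and Fos, a subunit of AP-1, was at 4.35, 4.36 and 3.56 in young and 6.69, 4.83 and 4.93 in old liver (1.39 ± 0.92, adjusted p = 0.685). Dusp6, a feedback phosphatase of ERK, differed by 0.91 ± 0.40 (adjusted p = 0.573). Ccn2, a matrix protein and target of YAP and TGF beta, was highest in the same array, at 5.44, 5.51 and 5.63 in young and 7.41, 5.83 and 5.57 in old liver. Of the 35 measured stellate cell and fibroblast markers to which Ccn2 belongs, 0 were called, and Dcn, the proteoglycan decorin, differed by 0.47 ± 0.21 (adjusted p = 0.579).

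Genes of fatty acid oxidation leaned downward. Of 41 measured targets of PPAR alpha and oxidation genes, 0 were called, 9 (22%) lay wholly below the young arrays and 0 above, against 12.4% and 3.18% of all genes, and the median of -0.14 was the lowest of the lists. Cyp4a10, a fatty acid hydroxylase, was at 6.82, 6.99 and 5.93 in young and 4.14, 5.54 and 4.00 in old liver, a difference of -2.02 ± 0.69 (limma, adjusted p = 0.446). Acot1, a cytosolic thioesterase, was at 7.24, 7.44 and 7.35 in young and 6.03, 6.99 and 6.84 in old liver, a difference of -0.72 ± 0.24 (adjusted p = 0.399). Angptl4, a secreted inhibitor of lipoprotein lipase, differed by -0.52 ± 0.17 (adjusted p = 0.435). The ages were separated for all 3, with old 2 the highest old array.

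Drug metabolism and sex-biased genes showed no called member. Of 51 measured cytochrome P450 and other phase I genes, 0 were called, with a median of -0.07. Wholly above lay 3 (5.88%) and wholly below 7 (13.7%), against 3.18% and 12.4% of all genes. Cyp26a1, which breaks down retinoic acid, was at 7.88, 6.84 and 6.34 in young and 8.80, 8.41 and 8.19 in old liver, a difference of 1.44 ± 0.43 (limma, adjusted p = 0.346). Cyp3a16 differed by -0.28 ± 0.12 (adjusted p = 0.555). Of 19 measured male-biased liver genes 0 were called and 4 (21.1%) lay wholly below, against 12.4% of all genes, with a median of -0.08. They included Socs2, Lifr, a cytokine receptor (-0.52 ± 0.31, adjusted p = 0.657), and Igf1, the growth hormone target and circulating growth factor, at 10.95, 11.08 and 10.98 in young and 10.65, 10.87 and 10.68 in old liver (-0.27 ± 0.12, adjusted p = 0.573). Of 22 female-biased genes, 0 were called and 9 differences were above 0. Among them 1 (4.55%) lay wholly above and 3 (13.6%) below, against 3.18% and 12.4% of all genes. The smallest p values in that list belonged to Cyp4a10 and Cyp3a16, given above, and to Cyp2b9, which differed by 0.62 ± 0.29 (adjusted p = 0.607).

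Bile acid and conjugation genes were close to the background. Of 19 measured bile acid genes 0 were called and 2 (10.5%) lay wholly below, against 12.4% of all genes. They included Abcc3, an exporter of conjugates into blood, at 10.44, 10.39 and 10.54 in young and 9.51, 10.08 and 9.68 in old liver, a difference of -0.70 ± 0.20 (limma, adjusted p = 0.297). Slc51a, a subunit of the basolateral bile acid transporter, differed by -0.22 ± 0.09 (adjusted p = 0.551). Of 34 phase II conjugation genes 0 were called, with a median of -0.06. Of 28 measured hepatocyte secreted and identity genes 0 were called and 16 differences were above 0. Among them 3 (10.7%) lay wholly above and 3 (10.7%) below, against 3.18% and 12.4% of all genes. The smallest p values belonged to transcription factors of liver development whose ages overlapped: Foxa2 at -0.40 ± 0.16 (adjusted p = 0.546), Prox1 at 0.42 ± 0.17 (adjusted p = 0.555) and Onecut1 at -0.79 ± 0.34 (adjusted p = 0.568).

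Cell cycle genes lay lower by small amounts, without passing. Of 45 measured cell cycle and DNA replication genes 0 were called, but 12 (26.7%) lay wholly below the young arrays, against 12.4% of all genes, and 11 were lower at an unadjusted p under 0.05. The median was -0.13, the second lowest of the lists. Mki67, which encodes the proliferation antigen Ki-67, was at 5.86, 5.68 and 5.97 in young and 5.48, 5.41 and 5.35 in old liver, a difference of -0.42 ± 0.12 (limma, adjusted p = 0.284). E2f3, a factor of S phase entry, differed by -0.31 ± 0.10 (adjusted p = 0.442) and Mad2l1, of the spindle checkpoint, by -0.26 ± 0.10 (adjusted p = 0.546). These genes were dim, with a mean level of the list of 5.84 to 5.93 in young and 5.72 to 5.82 in old arrays. With all probe sets divided into 4 equal bins of level, the median difference was -0.07 in each of the 2 dimmer bins and -0.03 in the brightest, and the part of this gradient in the cell cycle values was not tested.

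No measured marker of senescence was called. Of 37 measured p53, senescence and DNA damage genes 0 were called. Among them 0 lay wholly above and 5 (13.5%) below, against 3.18% and 12.4% of all genes. Cdkn1a, the cell cycle inhibitor p21, was at 8.43, 8.30 and 8.28 in young and 8.20, 8.17 and 8.22 in old liver, a difference of -0.14 ± 0.11 (limma, adjusted p = 0.749). The old values lay just below the young ones. Lmnb1, a nuclear lamina protein whose loss accompanies senescence in cultured cells, differed by -0.24 ± 0.09 (adjusted p = 0.509).

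Mitochondrial respiration genes differed little. Of 59 measured respiratory chain and ATP synthase genes 0 were called, and the median of -0.03 was close to the -0.05 of all genes. Among them 11 (18.6%) lay wholly below and 0 above, against 12.4% and 3.18% of all genes. Ndufb3, a subunit of complex I, was at 8.99, 8.94 and 8.96 in young and 8.60, 8.74 and 8.66 in old liver, a difference of -0.29 ± 0.12 (limma, adjusted p = 0.516). Of 39 heat shock and ER chaperone genes 0 were called. Hspb8, a small heat shock protein, differed by -0.46 ± 0.16 (adjusted p = 0.470) and Herpud1, of ER-associated degradation, by -0.68 ± 0.30 (adjusted p = 0.574). Of 36 amino acid and urea cycle genes 0 were called, with Oat, ornithine aminotransferase, at -0.54 ± 0.21 (adjusted p = 0.509) and Shmt2, a mitochondrial enzyme of serine metabolism, at -0.33 ± 0.12 (adjusted p = 0.470). Of 31 oxidative stress and metal response genes 0 were called, with Gpx3, the plasma glutathione peroxidase, at 0.53 ± 0.23 (adjusted p = 0.572).

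In all, 32 of the 36 lists had no called member and 34 had medians within 0.15 of 0. Lists with 0 calls also include the 20 measured sinusoidal endothelial, 14 cholangiocyte, 11 erythroid and 12 adipocyte markers, and the 32 ribosomal protein, 39 proteasome and 30 gluconeogenesis and fasting genes. Their medians were -0.06, 0.01, 0.02, -0.07, -0.02, -0.04 and -0.09 in that order. Of the 14 cholangiocyte markers, 3 (21.4%) lay wholly above and 1 (7.14%) below, against 3.18% and 12.4% of all genes. Their summed linear level, which the brightest members dominate, was 4874 to 5865 in young and 6167 to 6932 in old arrays and did not overlap. Their mean log2 level did overlap, at 5.85 to 5.91 in young and 5.87 to 5.95 in old arrays. Which members made up the sum was not examined, so the sum is not a measure of bile duct cells.

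The age difference was also measured in the other 40 arrays, which share no array with the 0 h comparison. As the mean over the 4 times after PH, 802 probe sets (6.46%) were higher and 410 (3.3%) lower in old liver, and after sham surgery 60 (0.483%) were higher and 35 (0.282%) lower. Those means rest on more arrays than the 6 at 0 h, so the counts are not on 1 footing. In single conditions the counts were 39 (0.314%), 252 (2.03%), 57 (0.459%) and 27 (0.217%) at 0.5, 1, 2 and 4 h after PH, and 4 (0.0322%), 9 (0.0725%), 7 (0.0564%) and 1 (0.00805%) at the same times after sham surgery. Over the 8 operated conditions together, 954 probe sets (7.68%) differed. Of the 18 probe sets called at 0 h, 16 had the same sign after PH and 18 after sham surgery. Of the 18, 15 were called in the same direction over the 8 operated conditions, which is 83.3% of the 18 and 1.57% of the 954. When the 0 h arrays were fitted alone, 6 of the 18 were called at 0 h. Of the 954, 809 (84.8%) had the same sign at 0 h, against 63.9% of all probe sets.

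Noct and Ifi27 were also higher in old liver after surgery. Ifi27 was higher in old liver in all 8 operated conditions, by 0.90 to 1.48, with means of 1.09 after PH (limma, adjusted p = 1.96e-09) and 1.30 after sham surgery (adjusted p = 6.88e-09). Noct was higher in all 8, by 0.68 to 2.06, with means of 1.06 after PH (adjusted p = 1.98e-08) and 1.54 after sham surgery (adjusted p = 8.23e-10). The difference of Noct at 0 h was 2.11, and the direct contrast of 0 h with the operated livers gave 0.81 ± 0.22, which did not pass (unadjusted p = 8.25e-04, adjusted p = 0.788). Cxcl1 was higher after PH by a mean of 1.28 (adjusted p = 0.00278), whereas its mean of 0.93 after sham surgery did not pass (adjusted p = 0.261). The probe set of Slc39a4 that fell at 0 h was lower after PH, by a mean of -0.68 (adjusted p = 2.38e-04), and at -0.49 after sham surgery it did not pass (adjusted p = 0.109). Tcf4 was higher by 0.21 after PH (adjusted p = 0.0146) and at 0.18 after sham surgery did not pass (adjusted p = 0.278).

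Zbtb16 and Srebf1 had no such difference called after surgery. Zbtb16 differed by 0.38 ± 0.24 after PH (limma, adjusted p = 0.323) and -0.12 ± 0.29 after sham surgery (adjusted p = 0.931), and its values in the single conditions ranged from -0.46 at 1 h to 1.20 at 0.5 h after PH. Srebf1 differed by -0.09 ± 0.09 after PH (adjusted p = 0.575) and 0.18 ± 0.11 after sham surgery (adjusted p = 0.600). The age difference at 0 h minus the mean age difference in the operated livers was tested directly. It was -2.39 ± 0.51 for Zbtb16 (adjusted p = 0.298) and 0.78 ± 0.19 for Srebf1 (adjusted p = 0.486), and neither passed. Over all probe sets 0 of 12422 (0%) passed this limma test, while 603 (4.85%) had an unadjusted p under 0.05. Without young 3 the test called 1 gene, Srebf1 (1.06 ± 0.18, adjusted p = 0.0193), and without old 1 it called 2 probe sets, Errfi1, a feedback inhibitor of EGF receptor signalling (-0.65 ± 0.10, adjusted p = 0.00759), and the unnamed 102125_f_at (-0.66 ± 0.11, adjusted p = 0.0124). With array weights it called 45.

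**Figure D5:**
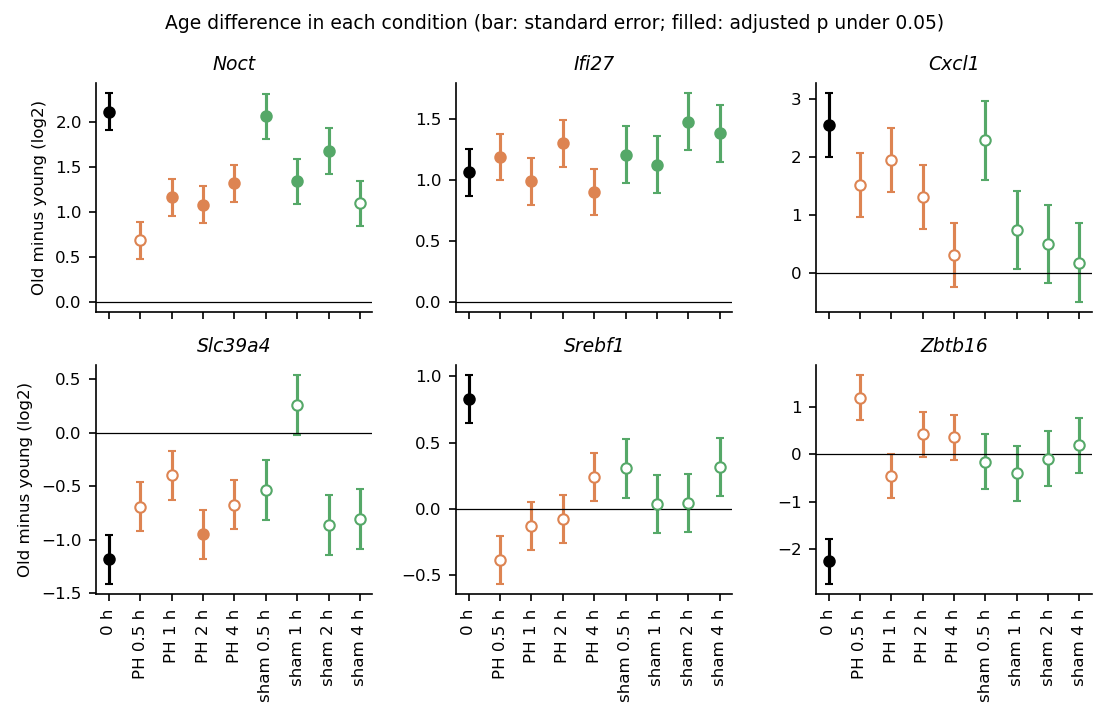
Old minus young difference (vertical axes, log2, which differ between panels) at 0 h (black), 0.5 to 4 h after PH (orange) and after sham surgery (green) for 6 genes, with bars for the standard error and filled points where the adjusted p of that condition was under 0.05. Ifi27 and Noct lie above 0 in every condition, whereas Zbtb16, Srebf1 and Cxcl1 have a filled point only at 0 h.

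Lists with members above the young level but 0 or 1 call at 0 h had more called members in the larger comparison after PH, where 7.22% of 8251 genes were higher and 3.47% lower. There 26 of the 38 interferon-induced genes, 15 of the 29 acute phase genes, 15 of the 29 macrophage markers, 11 of the 18 cholesterol synthesis genes and 7 of the 14 MHC class II genes were higher in old liver. After sham surgery, on fewer arrays, 0.461% of genes were higher. There the counts in the same order were 7, 0, 1, 0 and 0, so most of these lists had no called member. Among single genes after PH, Igkv6-23 was higher by 3.17 (limma, adjusted p = 1.85e-06), Lyz2 by 1.25 (adjusted p = 1.98e-04), Mpeg1 by 1.02 (adjusted p = 2.42e-06), Cd74 by 1.00 (adjusted p = 2.38e-04) and Fasn by 0.45 (adjusted p = 0.00414). For Igkv6-23 the difference at 0 h was 3.07, and the direct contrast of 0 h with the operated livers gave 0.42 (adjusted p = 0.977). For cell cycle genes the PH comparison gave 1 higher and 3 lower of 45, and for the PPAR alpha and oxidation genes 4 higher and 8 lower of 41.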

How the data were processed

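RNA of whole liver (RNeasy columns) was made into biotinylated cRNA and measured on Affymetrix U74 version 2 mouse arrays, per the labels' protocols. The authors deposited RMA values on the log2 scale, per the submitters' processing notes. RMA usually corrects background, equalises distributions across arrays and summarises probes, which can shrink the differences of dim genes. Neither the RMA version nor the set of arrays normalised together is stated in the sources used here.

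Of 12488 probe sets, 66 controls were left out. The platform annotation gave 10833 of the others 1 symbol, 396 several and 1193 none. Only the first were named. All 46 arrays entered 1 model with 18 group means (lmFit and eBayes of limma 3.58.1, R 4.3.3, with 28 residual and 5.09 prior degrees of freedom), and each contrast was adjusted by Benjamini-Hochberg over 12422 probe sets at 0.05. The script was tested on simulated data. Errors are standard errors of the difference. Arrays have no read depth, and their number limits the precision.

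The lists (1438 entries, 3 without a current symbol) and the comparisons were chosen with earlier results of these data known. A list member was measured on its gene's brightest probe set. Named were up to 15 passing genes per direction, filled to 10 by smallest p as values only, up to 6 passing members per list or else 3 by smallest p as values only, and a short set of familiar liver genes. Promoters came from RefSeq. The labels give no pairing by replicate number, and samples were not paired. Deviations of same-numbered young and old arrays correlated at -0.05, 0.20 and 0.06, and those of differently numbered ones at -0.15 to 0.09. With 3 arrays per age these values cannot decide whether a pairing existed. Alternatives were centring, a filter on the dimmest 25%, trended robust moderation, fewer arrays, 1 probe set per gene, suffixes left out, the replicate block, array weights, a spike-in covariate and leaving out arrays.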

Additional observations from a re-analysis of the deposited data

How the results depend on the processing

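The count of 18 probe sets at 0 h (88.9% higher) became 7 with the 0 h arrays alone (71.4% higher), 8 without the sham arrays (100% higher), 2 with 1 probe set per gene (100% higher), 4 with cross-hybridising suffixes left out (75% higher) and 623 with array weights (18.6% higher), which gave young 1 a weight of 3.29 and the other 5 arrays 0.680 to 2.06. It was 6 to 16 with single arrays left out and 6 without both young 3 and old 1, a setting added after seeing the data. With each array centred it was 20, with the dimmest left out 16, with trended robust moderation 14 and with the spike-in covariate 13. With the replicate number as a block it was 17, of which 16 were among the 18. That block lost the calls of Srebf1 and of 93908_f_at, and no paired design is given by the labels. List members called numbered 2 to 4 with single arrays left out. After sham surgery the count of 95 became 59 with 1 probe set per gene and 57 with suffixes left out. The direct contrast of 0 h with the operated livers called 45 with array weights, 0 to 2 with single arrays left out and 2 without both arrays. Noct passed in 17 of 17 alternatives. Reversed signs occurred in uncalled genes only, with single arrays left out: Per1 ranged from -0.34 to 0.00978, Nr1d1 from -0.50 to 0.0839 and Dbp from -0.45 to 0.52. With 3 arrays per age, the smallest difference called was 0.53, and the median standard error was 0.11.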
